A study of Mus musculus with 4 samples.

Results

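The serpins are a family of protease inhibitors and related carrier proteins, and liver makes most of the serpins found in plasma. Members were taken as the protein-coding genes whose mouse symbol starts with Serpin, which gave 61 of the 48709 gene identifiers in the count files. They fall into clades by the letter after Serpin, with 24 genes in clade A, 26 in clade B, 3 in clade E, 2 each in clades F and I, and 1 each in clades C, D, G and H. Liver RNA of untreated adult mice of the strain C57BL/6 was sequenced as 4 mRNA libraries, 2 with the genotype WT and 2 with the genotype DDI2-/-, here called KO-labelled. Per the study's methods, controls were littermates, whose Ddi2 and Cre alleles are not spelled out for these libraries, and the DDI2-KO mice carry a floxed Ddi2 allele with Cre under the albumin promoter, so that the deletion is directed to hepatocytes and other liver cells keep the gene. The aspartic protease DDI2 cleaves NRF1, a transcription factor, into its active form. The comparison asks which transcripts differ between livers with and without it.

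An inhibitory serpin works as a bait. Its exposed reactive centre loop is cut by the target protease, after which the loop folds into the body of the serpin and traps the protease as an inactive complex. The residues of this loop decide which proteases are caught, so that paralogs that are otherwise nearly alike can differ in their targets. Some members have lost inhibition and carry hormones or help other proteins fold. Antithrombin, heparin cofactor II, alpha-2-antiplasmin, C1 inhibitor and alpha-1-antitrypsin are hepatocyte products that hold clotting, fibrinolysis, complement and neutrophil elastase in check.

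Depth per library was 22501208 to 34109018 gene-assigned reads. Ddi2 itself had 4749 and 3812 WT reads against 4068 and 3777 in the KO-labelled libraries (log2 fold change 0.28, standard error 0.17, adjusted p = 0.349 from edgeR). The count is for the whole gene and does not separate the floxed part, so it does not check the labels. The 8 hepatocyte markers were present in every library, whereas 5 of 6 pancreatic acinar markers were at 0 in all of them. The summed level of the hepatocyte markers was 160494 and 181856 CPM (counts scaled to a library of 1e6 reads) in WT and 150805 and 152660 CPM in the KO-labelled libraries. The 8 Kupffer cell markers summed to 730 and 624 CPM in WT against 869 and 743 CPM, and the erythroid markers to 85.1 and 163 CPM against 65.4 and 54.1 CPM. Their part in the results was not tested, and in bulk liver fewer cells of a type and less RNA per cell cannot be told apart.

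Serpin transcripts took 3.50% of the gene-assigned reads in WT replicate 1 (95% Wilson interval 3.49 to 3.51) and 3.54% in WT replicate 2 (3.53 to 3.54). In the KO-labelled libraries the share was 3.27% (3.27 to 3.28) and 3.41% (3.40 to 3.41). These intervals cover counting error only. The group means were 3.52% ± 0.0254 (SD, n = 2) and 3.34% ± 0.0944 (SD, n = 2), and the groups did not overlap. No test is given for this sum over the members. Mitochondrially encoded genes took 10.5% and 9.91% of the gene-assigned reads in WT and 5.27% and 6.34% in the KO-labelled libraries. With these genes left out of the total, the serpin share was 3.92% ± 0.00970 (SD, n = 2) in WT and 3.55% ± 0.128 (SD, n = 2) in the KO-labelled libraries, so that the difference between the means grew from -0.18 to -0.37 percentage points.

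Few genes carried the family's reads. The 10 most abundant members held from 91.6% to 92.3% of the serpin reads in each library. The 5 alpha-1-antitrypsin paralogs Serpina1a to Serpina1e held from 46.5% to 55.1%, and Serpina3k, an antichymotrypsin-like gene also known as contrapsin, from 20.1% to 29.1%. Clade A took 2.87% ± 0.0302 (SD, n = 2) of the gene-assigned reads in WT and 2.64% ± 0.131 (SD, n = 2) in the KO-labelled libraries. This difference too was smaller than that of its member Serpina1e alone. Clade C, which is antithrombin alone, took 0.258% ± 0.000154 (SD, n = 2) in WT, and the mean of the KO-labelled libraries was 0.042 percentage points higher, with groups that did not overlap either. Clade F took 0.189% and 0.190%, clade G 0.107% and 0.110%, and clade D 0.0861% and 0.0879% in WT and in the KO-labelled libraries, with overlapping groups. Clade B, with the most genes, took 0.00514% and 0.00512%.

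**Figure D1:**
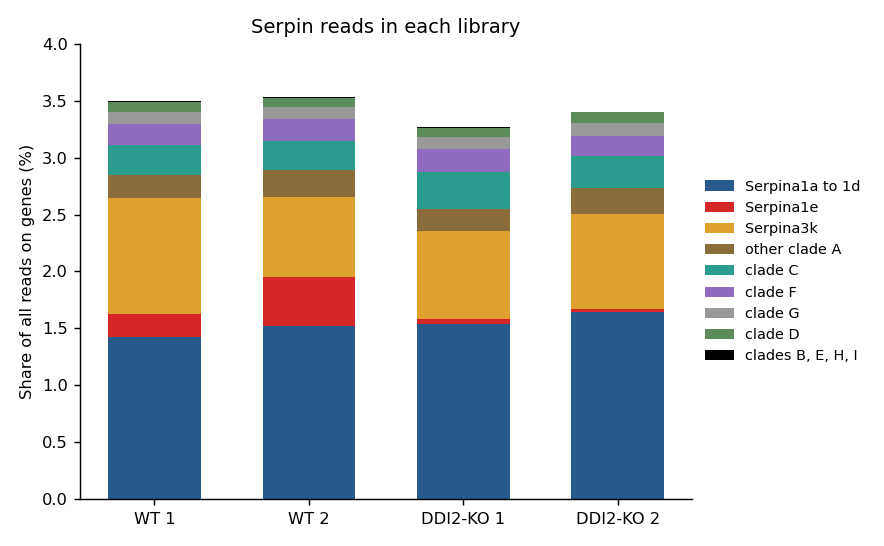
Share of all gene-assigned reads (%) taken by serpin genes in each of the 4 libraries, stacked by gene group. The bars reach 3.50% and 3.54% in WT and 3.27% and 3.41% in the KO-labelled libraries, and the band of Serpina1e is wide in both WT libraries and thin in the other two.

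Of the 61 genes, 31 passed edgeR's filter on low counts, 18 had no read in any library and 12 had at most 9 reads in any library. The genes with no read were 15 of clade B, together with Serpina16, Serpina1f and Serpini2. Some of them are near copies of each other, and 78.7% of the 50-base stretches of Serpinb9f, 54.8% of those of Serpinb9g and 30.8% of those of Serpinb9d occur in another gene, so that reads from these stretches would be counted for none. Among the 31 genes tested, Serpina1e passed an adjusted p of 0.05, lower in the KO-labelled libraries, and no member passed in the other direction. Across all genes, 1.20% of the 13699 genes tested passed with lower levels, 1.33% with higher levels and 2.53% in either direction. The median log2 fold change of the tested members was 0.041, against -0.015 over all genes tested, with 16 members above 0 and 15 below. The groups did not overlap in 15 members, 11 of them higher in the KO-labelled libraries, whereas 55.7% of all genes tested had groups that did not overlap. Those were 7635 genes, of which 3835 were higher in the KO-labelled libraries. At an unadjusted p of 0.05 there were 5 members, against 23.5% of all genes tested.

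Serpina1e is 1 of 5 copies of the alpha-1-antitrypsin gene that lie in a cluster on chromosome 12 (GRCm38), minus strand. The lowest coordinate of Serpina1b (ENSMUSG00000071178) is 103728156, that of Serpina1d (ENSMUSG00000071177) 103763594, that of Serpina1a (ENSMUSG00000066366) 103853589 and that of Serpina1c (ENSMUSG00000079015) 103894926. Serpina1e (ENSMUSG00000072849) runs from 103946931 to 103958975. The annotated span of Serpina1b reaches to 103830373 and contains that of Serpina1d. The coding sequences of the 5 paralogs have 1239 bases each and align without gaps, and pairs of paralogs share from 96.3% to 98.5% of these bases. Of the 1239 positions, 86 differ among the 5, and Serpina1e alone departs from 4 like paralogs at 17. This count is 16 for Serpina1b, 15 for Serpina1d, 7 for Serpina1c and 6 for Serpina1a. The differences are unevenly placed. The stretch of 60 coding bases with most of them lies in the last exon, exon 5, at coding positions 1101 to 1160, and holds the codons of the reactive centre loop. There 18 of 60 positions differ. The 5 sequences are shown because they separate the paralogs and carry the loop, with capitals at each position that is not the same in all 5.
Serpina1a: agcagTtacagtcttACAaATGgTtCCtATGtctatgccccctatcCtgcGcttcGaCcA
Serpina1b: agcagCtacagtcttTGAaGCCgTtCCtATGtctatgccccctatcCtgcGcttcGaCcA
Serpina1c: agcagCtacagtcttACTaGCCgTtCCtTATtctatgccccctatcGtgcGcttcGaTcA
Serpina1d: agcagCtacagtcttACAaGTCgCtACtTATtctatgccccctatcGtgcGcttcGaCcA
Serpina1e: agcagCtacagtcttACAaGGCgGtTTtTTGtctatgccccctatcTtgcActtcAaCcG
In the transcript of Serpina1e this stretch lies at chr12:103947100-103947159. A read that covers all of it can be given to 1 paralog. Serpina1a and Serpina1b are alike over its later part, so a read from that part alone does not separate these.

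Other stretches of the transcripts are alike in some or all paralogs. The longest coding stretch without a difference among the 5 has 226 bases. Its first 50 bases, in exon 2 at coding positions 337 to 386 (chr12:103951023-103951072 in Serpina1e), are shown as an example of sequence whose reads fit every copy.
shared stretch: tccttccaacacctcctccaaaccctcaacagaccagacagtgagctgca
Of the stretches of 50 bases in the annotated transcripts of Serpina1c, 74.2% also occur in another gene. The share was 57.6% for Serpina1a, 50.9% for Serpina1d, 34.6% for Serpina1e and 29.5% for Serpina1b. With stretches of 100 bases it was 58.5%, 42.8%, 29.3%, 14.4% and 14.8%. The other genes are the paralogs themselves and Gm8893, an unprocessed pseudogene within the cluster (103817856 to 103822243). The count files keep a line for alignments that were not unique. It stood at 65.8% and 51.8% of the gene-assigned reads in WT and at 49.2% and 47.3% in the KO-labelled libraries, and its part in the Serpina1 results was not tested. These alignments were counted for no gene, so the levels of the paralogs refer to the stretches in which they differ.

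**Figure D2:**
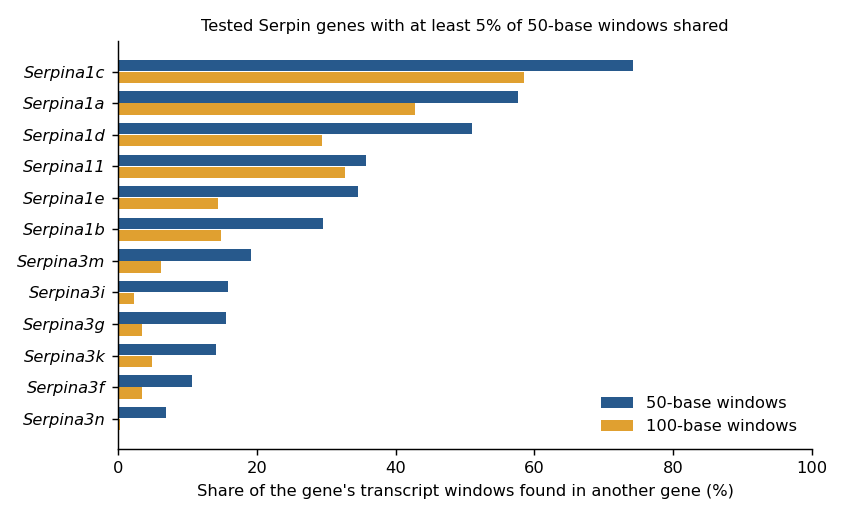
Share (%) of distinct stretches of 50 and 100 bases in a gene's annotated transcripts that occur in a transcript of another gene, for the tested serpin genes with at least 5% of 50-base stretches shared. Serpina1c reaches 74.2% and Serpina1a 57.6%, whereas the Serpina3 genes stay between 6.90% and 19.1%.

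Serpina1e fell in the KO-labelled libraries while its neighbours did not pass the test. It had 68885 and 134536 WT reads against 11315 and 6008 in the KO-labelled libraries, or 2049 and 4354 CPM against 437 and 261 CPM. Both KO-labelled libraries lay far below both WT libraries, and the WT libraries differed from each other more than in any other Serpina1 paralog. The means were 3202 ± 1630 CPM (SD, n = 2) and 349 ± 124 CPM (SD, n = 2). The log2 fold change was -3.20 (standard error 0.45, 95% interval -4.32 to -2.08, adjusted p = 0.0404 in the quasi-likelihood test of edgeR, Benjamini-Hochberg adjusted), or 9.17-fold lower. Of the genes tested, 22 or 0.161% had a fitted fall at least as large. By reads, Serpina1e ranked 51 and 27 among all genes in WT and 261 and 419 in the KO-labelled libraries. The call was lost without DDI2-KO replicate 1 (log2 fold change -3.61, edgeR adjusted p = 0.0960) and without DDI2-KO replicate 2 (-2.86, adjusted p = 0.113). It was also lost with every gene kept whatever its counts (-3.18, adjusted p = 0.107) and with the replicate number as a block (-3.14, adjusted p = 0.132).

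The other 4 paralogs are the comparison within the same gene family and cluster. Serpina1a had 2238 and 2409 CPM in WT and 1879 and 1879 CPM in the KO-labelled libraries, and both of the latter were lower (log2 fold change -0.31, standard error 0.17, 95% interval -0.69 to 0.076, adjusted p = 0.305 from edgeR). Serpina1b, the paralog with the most counted reads, had 5008 and 5371 CPM in WT and 5979 and 5685 CPM in the KO-labelled libraries (0.17, standard error 0.16, interval -0.21 to 0.55, adjusted p = 0.584). Serpina1c had 3675 and 3992 CPM against 3437 and 4515 CPM, with groups that overlapped (0.053, interval -0.39 to 0.49). Serpina1d had 3523 and 3764 CPM against 3869 and 3991 CPM (0.11, interval -0.27 to 0.49). The intervals of these 4 genes exclude a change of 2-fold in either direction. Summed, Serpina1a to Serpina1d had 14990 ± 772 CPM in WT (SD, n = 2) against 15617 ± 642 CPM (SD, n = 2) in the KO-labelled libraries, a log2 ratio of 0.059. With Serpina1e in the sum the values were 18192 ± 2402 and 15966 ± 518 CPM (SD, n = 2), a log2 ratio of -0.19.

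The make-up of the alpha-1-antitrypsin reads therefore differed. Serpina1e gave 12.4% of the reads on the 5 paralogs in WT replicate 1 (95% Wilson interval 12.3 to 12.5) and 21.9% in WT replicate 2. It gave 2.80% (2.75 to 2.85) and 1.60% (1.56 to 1.64) in the KO-labelled libraries. Serpina1b gave 30.4% and 27.0% in WT and 38.3% and 34.8% in the KO-labelled libraries. These are shares of a common total, so a lower count of Serpina1e by itself raises those of the other paralogs. Per kilobase of the longest annotated transcript, the mean level of Serpina1e was 2033 CPM in WT, between that of Serpina1d (2614 CPM) and that of Serpina1a (1470 CPM). In the KO-labelled libraries it was 222 CPM, below Serpina1a at 1188 CPM and also below antithrombin and C1 inhibitor (594 and 611 CPM). These lengths include stretches shared with other genes, 34.6% of the 50-base stretches in Serpina1e and 57.6% in Serpina1a. Reads from shared stretches were counted for no gene, so the order of the paralogs by level is uncertain. The pseudogene Gm8893 had 50.8 and 66.6 CPM in WT and 26.6 and 23.5 CPM in the KO-labelled libraries (log2 fold change -1.23, standard error 0.19, adjusted p = 0.0288 from edgeR). Of the 50-base stretches of Serpina1e, 18.2% occur in it. The share was 36.6% for Serpina1c, 31.1% for Serpina1a, 27.6% for Serpina1d and 15.6% for Serpina1b. Gm8893 was looked up because of these shared stretches, after the serpin values had been seen.

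**Figure D3:**
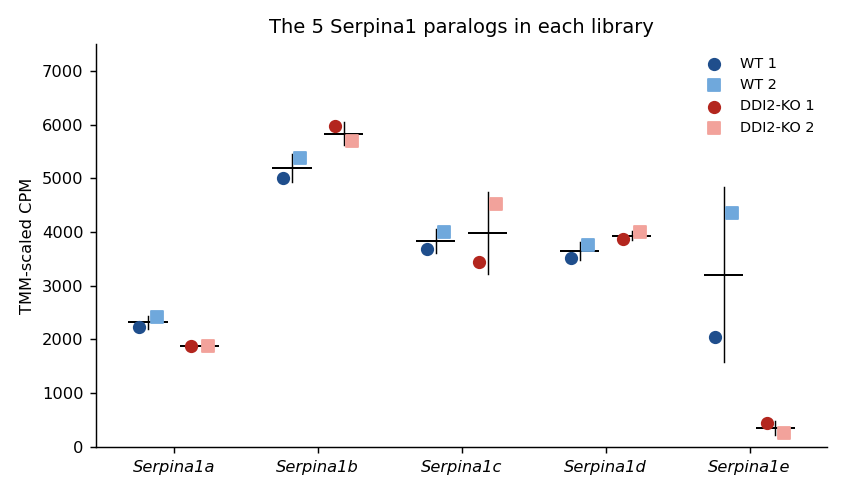
TMM-scaled CPM of the 5 Serpina1 paralogs in each library (points), with group means (horizontal lines) and SD (vertical lines, n = 2). Serpina1e falls from 2049 and 4354 CPM in WT to 437 and 261 CPM in the KO-labelled libraries, whereas the points of the other 4 paralogs lie close together.

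The promoters of the 5 paralogs were compared because their transcripts moved unequally. In the RefSeq windows of GRCm38.p6, 188 to 190 bases could be aligned upstream of 1 RefSeq start per paralog. Over these bases, pairs shared from 92.6% to 97.9%. For Serpina1e and Serpina1b the aligned stretch lies inside the gene's span in GENCODE, so starts annotated further upstream there were not compared. Serpina1e alone departed from 4 like paralogs at 1 of the 191 aligned columns. The count was 2 for Serpina1a, 3 for Serpina1c, 5 for Serpina1b and 7 for Serpina1d. The promoter of Serpina1e shared 97.9% with that of Serpina1b. Both are shown 5′ to 3′ on the minus strand, with capitals where the 5 paralogs are not the same, at chr12:103956960-103957147 for Serpina1e and chr12:103738200-103738389 for Serpina1b.
Serpina1e: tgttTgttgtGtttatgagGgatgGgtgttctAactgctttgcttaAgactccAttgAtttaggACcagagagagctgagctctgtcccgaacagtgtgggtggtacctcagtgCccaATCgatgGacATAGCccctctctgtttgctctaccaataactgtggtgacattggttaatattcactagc
Serpina1b: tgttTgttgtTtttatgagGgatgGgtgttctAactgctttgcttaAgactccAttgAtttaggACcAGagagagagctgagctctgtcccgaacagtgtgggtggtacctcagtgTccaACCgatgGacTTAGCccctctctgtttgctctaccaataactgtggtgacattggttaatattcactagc
The letters GTTAAT, a half-site of the hepatocyte factor HNF1, occur in each of the 5 promoters. On either strand these letters occur in 7.20% of the 27025 RefSeq promoter windows of 300 bases and in 11 of the 52 serpin promoters that the RefSeq set holds. The letters TTCNNNGAA, bound by STAT factors, occur in 8.47% of all windows, in 8 of the 52 serpin promoters and in none of the 5. TGACNNNGC, the core of the antioxidant response element bound by NRF1 and NRF2, occurs in 12.5% of all windows. This core occurs in 1 of the 52 serpin promoters and in none of the 5. Such matches describe the letters of these windows.

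Xist, the RNA of the inactive X chromosome, had 17484 and 11533 WT reads against 1230 and 3288 in the KO-labelled libraries (log2 fold change -2.23, adjusted p = 0.120 from edgeR). The Y-linked genes Ddx3y, Eif2s3y, Kdm5d and Uty had 0 reads in each of the 4 libraries. The labels give no sex, and the part of this difference in the Serpina1e result was not tested.

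The antichymotrypsin-like Serpina3 genes form a further mouse cluster on chromosome 12, where humans have a single gene, and 6 of the 10 protein-coding members were tested. Per kilobase of full transcript, with no allowance for shared stretches, Serpina3k had the highest level of all serpins. It had 10349 and 7239 CPM in WT and 7640 and 8180 CPM in the KO-labelled libraries, and the groups overlapped (log2 fold change -0.15, standard error 0.21, 95% interval -0.62 to 0.32, adjusted p = 0.700 from edgeR). WT replicate 1 was the highest library, and without it the log2 fold change was 0.13. Serpina3n, an inducible acute-phase member, had 579 and 445 CPM in WT and 408 and 378 CPM in the KO-labelled libraries (-0.38, standard error 0.19, adjusted p = 0.274). Serpina3m had 520 and 524 CPM in WT and 637 and 791 CPM in the KO-labelled libraries (0.45, standard error 0.18, adjusted p = 0.189). Both KO-labelled libraries lay below WT in Serpina3n and above WT in Serpina3m, without passing the test.

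Serpina3m and Serpina3k begin at the same annotated base (104338486), and 16.0% of the 50-base stretches of Serpina3m occur in Serpina3k, so the division of reads between them is uncertain. Serpina3f had 6.42 and 7.28 CPM in WT and 10.1 and 10.4 CPM in the KO-labelled libraries (0.58, standard error 0.20, adjusted p = 0.132 from edgeR). Serpina3g, expressed in blood cells and inducible by interferon, had 652 and 584 reads against 649 and 551 reads in the smaller KO-labelled libraries (0.36, adjusted p = 0.220). Serpina3i had from 6 to 17 reads a library. The sum over the 10 genes was 9854 ± 2291 CPM in WT (SD, n = 2) against 9053 ± 469 CPM (SD, n = 2) in the KO-labelled libraries, a difference smaller than the spread between the WT libraries.

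The hormone carriers of clade A varied among mice of the same genotype. Serpina6, corticosteroid-binding globulin, had 675 and 1134 CPM in WT and 528 and 727 CPM in the KO-labelled libraries. These ranges overlapped, and the log2 fold change of -0.53 (standard error 0.28, 95% interval -1.17 to 0.12) had an adjusted p of 0.296 from edgeR. Serpina7, the X-linked gene of thyroxine-binding globulin, had 23.1 and 41.7 CPM against 15.8 and 47.7 CPM. Its replicates differed more than its groups. The interval of its log2 fold change ran from -1.85 to 1.79, so that neither a rise nor a fall of 2-fold could be excluded.

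Serpina10, the protein Z-dependent inhibitor of clotting factor Xa, had 209 and 193 CPM in WT and 300 and 261 CPM in the KO-labelled libraries (log2 fold change 0.48, standard error 0.17, adjusted p = 0.150 from edgeR). Serpina12, vaspin, known as an insulin-sensitizing adipokine, had the largest positive value of the family. It had 475 and 100 WT reads against 669 and 655 in the KO-labelled libraries, or 14.1 and 3.24 CPM against 25.8 and 28.5 CPM. The log2 fold change was 1.64 (standard error 0.76, 95% interval -0.56 to 3.84, adjusted p = 0.306 from edgeR). Here WT replicate 1 decided the call, since without it the log2 fold change was 3.07 (adjusted p = 0.00127), and without WT replicate 2 it was 0.94. Of the 6 adipocyte markers, Plin1, Lep, Retn and Cfd were at 0 in every library and Adipoq had at most 3 reads. Their summed level, 2195 and 2472 CPM in WT against 1606 and 1440 CPM, came almost wholly from the other marker, Car3, and the groups did not overlap. The part of these markers in the Serpina12 values was not tested. Serpina11 (742 and 663 against 590 and 460 reads), of which 35.7% of the 50-base stretches lie in an overlapping transcript, and Serpina9 (from 2.09 to 5.91 CPM) had overlapping groups.

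**Figure D4:**
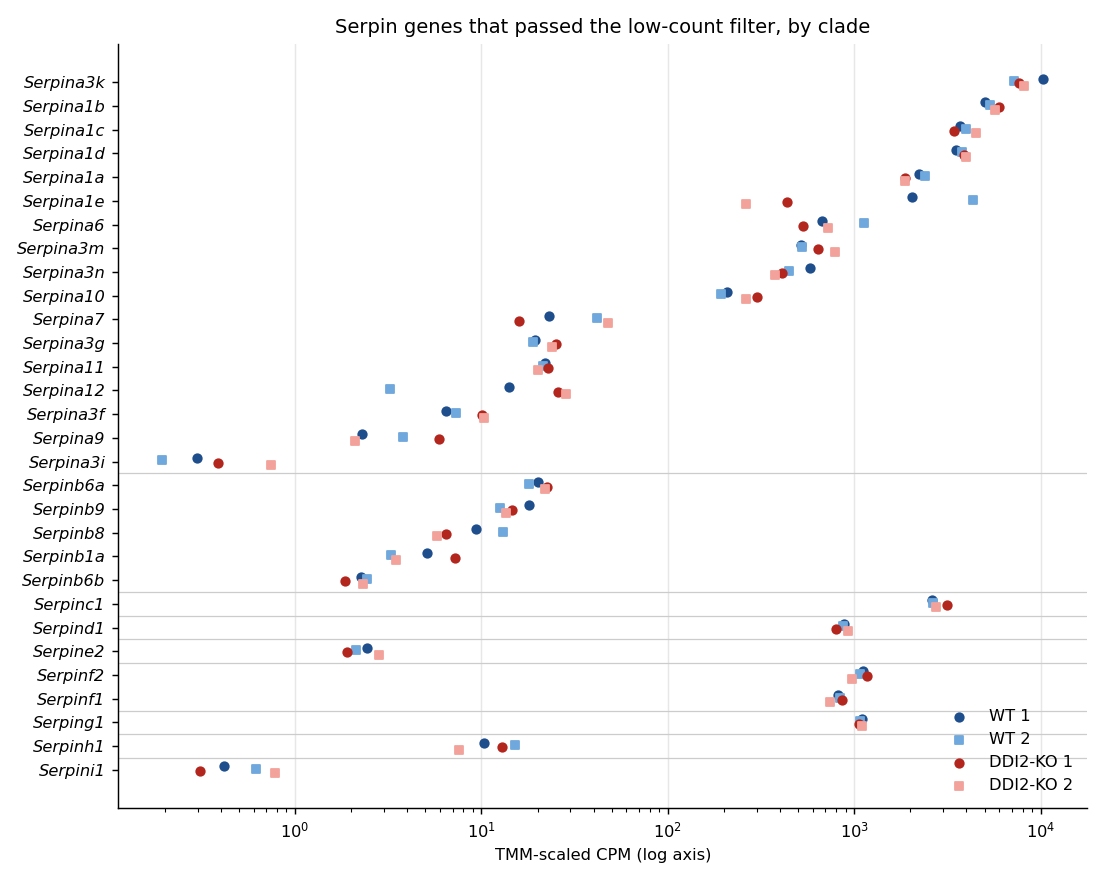
TMM-scaled CPM (log axis) of 30 serpin genes that passed the filter on low counts, grouped by clade and ordered by level, with 1 point per library. Points span from below 1 CPM for Serpina3i and Serpini1 to 10349 CPM for Serpina3k, and the libraries of Serpina1e and Serpina12 are the most widely spread among genes above 10 CPM in some library.

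The plasma inhibitors with a clade of their own or shared by a pair were nearly level between genotypes. Serpinc1, antithrombin, which blocks thrombin and factor Xa, had 2617 and 2635 CPM in WT and 3164 and 2742 CPM in the KO-labelled libraries (log2 fold change 0.17, standard error 0.17, 95% interval -0.22 to 0.56, adjusted p = 0.597 from edgeR). Both KO-labelled libraries lay above WT, without passing the test. Serpind1, heparin cofactor II, another inhibitor of thrombin, had 883 and 870 CPM against 798 and 931 CPM (-0.020, interval -0.42 to 0.38). Serpinf2, alpha-2-antiplasmin, the inhibitor of plasmin, had 1111 and 1070 CPM against 1174 and 968 CPM (-0.026, interval -0.44 to 0.39). Its neighbour on chromosome 11, Serpinf1, which encodes the anti-angiogenic factor PEDF, had 815 and 841 CPM against 856 and 745 CPM (-0.048, interval -0.45 to 0.35). Serping1, C1 inhibitor of complement and plasma kallikrein, had 1095 and 1075 CPM against 1061 and 1099 CPM (-0.0066, interval -0.39 to 0.38). In these last 4 genes the groups overlapped, and for all 5 the interval excluded a change of 2-fold. Such an interval within -1 to 1 was found for 19 of the 31 members and for 61.2% of all genes tested.

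The remaining clades have low levels in liver. Serpine2, protease nexin 1, had from 49 to 82 reads a library. Serpinh1, the collagen chaperone HSP47 of the endoplasmic reticulum, had 10.3 and 15.2 CPM in WT and 12.9 and 7.57 CPM in the KO-labelled libraries. The stellate and fibroblast markers summed to 477 and 529 CPM against 458 and 473 CPM. Serpini1, neuroserpin, had from 8 to 19 reads, Serpine3 had 1 read in 1 library, and Serpini2, a serpin of pancreas, had 0 reads in each library, which allows up to 3 counts or 0.0880 to 0.133 CPM.

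Clade B holds the intracellular serpins, which guard cytosol and nucleus against leaked granule and lysosomal proteases. Of its 26 genes, 5 were tested and none passed. Serpinb8 had 315 and 402 WT reads against 167 and 132 in the KO-labelled libraries. Both KO-labelled libraries lay below WT (log2 fold change -0.87, standard error 0.23, 95% interval -1.40 to -0.35, unadjusted p = 0.00502, adjusted p = 0.0777 from edgeR). Without the filter on low counts, the adjusted p of Serpinb8 was 0.0116. Serpinb6a, an inhibitor of cathepsin G, had 673 and 555 WT reads against 585 and 502 in the KO-labelled libraries (0.23, adjusted p = 0.445). Serpinb9, the inhibitor of granzyme B, had 18.1 and 12.6 CPM against 14.6 and 13.5 CPM, and Serpinb1a, an inhibitor of neutrophil elastase, 5.09 and 3.27 CPM against 7.22 and 3.48 CPM, with overlapping groups. The neutrophil markers summed to 7.76 and 7.74 CPM against 7.38 and 6.61 CPM, with Ly6g at 0.

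**Figure D5:**
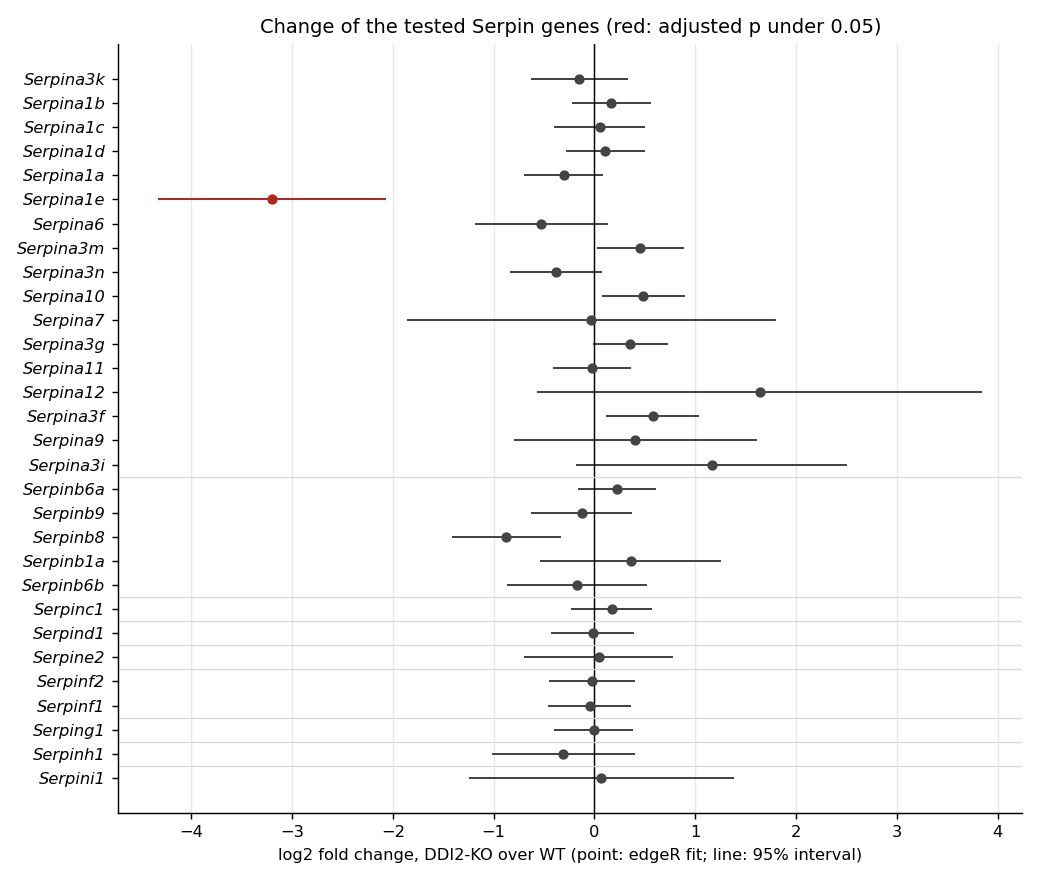
Log2 fold change of 30 tested serpin genes, KO-labelled libraries over WT, from the edgeR fit (points) with 95% intervals (lines), ordered as in the plot of levels. The interval of Serpina1e, -4.32 to -2.08, lies apart from those of its paralogs, and the widest intervals are those of Serpina12 and Serpina7.

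The proteases that serpins hold in check, and their partners, were read from lists. Of 24 tested genes on the list of target proteases, F11 passed, lower in the KO-labelled libraries, and none was called higher. The list also holds F13b, a subunit of factor XIII that is not a protease. F11, factor XI of the contact pathway, a target of antithrombin and C1 inhibitor, had 131 and 134 CPM in WT and 67.9 and 64.0 CPM in the KO-labelled libraries (log2 fold change -1.01, standard error 0.16, adjusted p = 0.0298 from edgeR). The median over this list was -0.015, and that over all genes tested was -0.015. None of 12 cofactors and receptors passed, and none of 23 genes on the list of other protease inhibitors, with medians of 0.019 and 0.026. The latter list includes the alpha-2-macroglobulin family and the inter-alpha-inhibitors, and also Cpb2, which is itself a carboxypeptidase. Of 20 acute-phase genes, Il1rn, the interleukin 1 receptor antagonist, passed (-1.46, adjusted p = 0.0442), with a median over the list of 0.15. Of 21 genes for folding and disposal of secretory proteins, Derl1, a channel component that exports misfolded proteins from the endoplasmic reticulum, passed (0.85, adjusted p = 0.0472), with a median of 0.12. Of 16 fits with edgeR, limma or DESeq2, F11 lost the call in 2, without WT replicate 1 (adjusted p = 0.0823) and without WT replicate 2 (adjusted p = 0.0685), with log2 fold changes between -1.14 and -0.96 over all 16. Il1rn lost it in 6, among them without WT replicate 1 (-1.54, adjusted p = 0.0874) and without WT replicate 2 (-1.38, adjusted p = 0.0934). Derl1 lost it in 8, among them without WT replicate 1 (0.84, adjusted p = 0.202), without WT replicate 2 (0.87, adjusted p = 0.149) and without DDI2-KO replicate 1 (0.71, adjusted p = 0.0683). The background of 2.53% called in either direction applies to these counts too.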

How the data were processed

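Liver mRNA of 2 WT and 2 DDI2-KO mice was sequenced as stranded libraries. The authors deposited raw counts, reads per Ensembl gene. The submitters' processing notes list cutadapt 1.8, STAR 2.5.2b, HTSeq 0.6.1 and GRCm38, while the counting settings and annotation are not given in the sources used here. Summary lines were not used as genes. Symbols, lengths and coordinates are from GENCODE M21 (GRCm38), which holds 48349 of 48709 identifiers. The fit used edgeR 4.0.16 in R 4.3.3 (TMM, filterByExpr, robust glmQLFit, glmQLFTest, no replicate block), with Benjamini-Hochberg adjustment over 13699 genes and a threshold of 0.05. CPM are counts over the TMM-scaled library size, times 1e6. A standard error is the log2 fold change over the square root of F. Files held 1 library each, and 3 counts were taken as the floor. The study used limma, run here as an alternative (limma 3.58.1), as was DESeq2 1.42.0. Stretches of 50 and 100 bases were searched on the same strand in all GENCODE transcripts. Sequences were aligned with mafft.

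Members and lists were chosen with earlier results of these data known. Named are members past the threshold, the 3 most abundant per clade, the 5 largest rises and falls among genes averaging 1 CPM or more, and 8 with known roles. Other members, such as the remaining Serpina1 paralogs, are named as their neighbours, chosen after values were seen. Alternatives were other scalings, tests, filters, denominators, length and GC offsets, a replicate block and leaving out each library. In simulated data, edgeR found 188 of the 197 genes given a log2 change of 2, with 12 of 200 calls false. Within each group the libraries were not duplicates (chi-square over degrees of freedom 69.7 in WT, 37.4 in DDI2-KO). The labels do not tie the replicate numbers to pairs. The p-values weigh the genotype difference against the spread between libraries, which edgeR estimates partly from all genes tested. The values of 1 tested member are not reported here.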

Additional observations from a re-analysis of the deposited data

How the results depend on the processing

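With 2 mice a group, the spread between mice limits precision more than depth, and genes under about 10 reads a library could not be judged. One Serpin gene was called under RLE, upper-quartile and total scaling, DESeq2, limma-voom, limma-trend, a minimum mean of 1 CPM, non-robust estimation and length and GC offsets, and in each of these it was Serpina1e. With no low-count filter, and likewise with the replicate block, the 1 gene called was Serpinb8. With each library left out the number of Serpin genes called ranged from 0 to 2. The log2 fold change of Serpina1e ranged from -3.64 to -2.55 with a library left out, and its adjusted p from 5.73e-05 to 0.132 over all alternatives. It lost the call without the filter on low counts (-3.18, adjusted p = 0.107) and with the replicate block (-3.14, adjusted p = 0.132).

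Same-numbered libraries had a correlation of 0.0588 in their deviations from the group means, so they share a number and are not shown to be pairs. The block moved the calls over all genes from 346 to 1108. These calls were 907 under DESeq2, 136 under limma-voom, 139 under limma-trend, 1544 without the filter, 152 without robust estimation and 771 with the offsets, and from 153 to 631 with a library left out. Of the calls, 182 were higher and 164 lower with TMM, 126 and 191 with upper-quartile factors and 230 and 148 with library totals.

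In the lists, 3 genes were called with edgeR, 8 under DESeq2, 1 under limma-voom, 1 under limma-trend, 9 without the filter, 1 without robust estimation, 8 with the replicate block, and from 1 to 5 with a library left out. Without mitochondrial genes in the total, the difference in share was -0.37 percentage points for the family, -0.39 for clade A and -0.0022 for clade G, and over non-mitochondrial protein-coding genes -0.38, -0.40 and -0.0024, against -0.18, -0.23 and 0.0032 over all reads. With a library left out it ran from -0.24 to -0.11 for the family.

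Signs near 0 were unstable. With upper-quartile factors the log2 fold change was -0.0013 for Serpina1c and -0.013 for Serpine2. With library totals it was 0.023 for Serpina7, 0.029 for Serpind1, 0.022 for Serpinf2 and 0.042 for Serping1. With the offsets it was -0.069 for Serpina1c, 0.066 for Serpina7 and -0.052 for Serpine2. Serping1 was at 0.0043 under DESeq2 and 0.0037 without the filter, and Serpini1 at -0.037 under limma-voom and -0.021 under limma-trend. With a library left out, values ran from -0.15 to 0.24 for Serpina1c, -0.39 to 0.13 for Serpina3k, -1.02 to 0.56 for Serpina7, -0.36 to 0.16 for Serpinb9, -0.13 to 0.091 for Serpind1, -0.26 to 0.31 for Serpine2, -0.15 to 0.057 for Serpinf1, -0.17 to 0.12 for Serpinf2, -0.023 to 0.022 for Serping1, -0.75 to 0.033 for Serpinh1 and -0.72 to 0.61 for Serpini1. The cause of these changes was not tested.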

Other observations

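Serpin-named pseudogenes were outside the family as defined. Serpina4-ps1 had WT reads of 676 and 563 and KO-labelled reads of 224 and 522, and Serpina3h, a transcribed pseudogene whose stretches recur in Serpina3g and Serpina3i, had 15 and 9 against 8 and 16 reads. Serpinb10, annotated as a polymorphic pseudogene, had 0 reads in each library.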
